A study of Mus musculus with 6 samples.

Results

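The subunits of oxidative phosphorylation were followed across 6 arrays of mouse colon tumour RNA, 3 from control mice and 3 from mice that carry a human IL8 transgene. Members were the genes whose symbol belongs to the Nduf, Sdh, Uqcr, Cox4 to Cox8 or Atp5 families of subunits and whose probe set, the group of short probes that reads a transcript, reached a log2 value of 4 on 3 or more of the 6 arrays. Of 80 such symbols, 73 were kept, out of 10289 genes tested in all, and each gene is given by its brightest kept probe set. They fall into 5 complexes, with 32 genes for complex I, 4 for complex II, 8 for complex III, 12 for complex IV and 17 for complex V. The controls are labelled wild type and the others human IL8 transgenic, all CBA/C57BL/6 mice and all labelled male, and every sample is a colon tumour. Age, the promoter that drives the transgene and the origin of the tumours were not given in the sources used here. Since it is unstated how many tumours went into an array, p-values here reflect variation among these 6 samples only, which may be partly technical.

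Oxidative phosphorylation takes place in the inner mitochondrial membrane. Complexes I and II pass electrons from NADH and succinate to ubiquinone, complex III passes them on to cytochrome c, and complex IV passes them to oxygen. Complexes I, III and IV pump protons, and complex V, the ATP synthase, uses the gradient to make ATP. Most subunits are encoded in the nucleus and a core set in mitochondrial DNA, so that the genes described here are the nuclear part of the machinery. In the colon, mature epithelial cells oxidise short chain fatty acids from gut bacteria in this way.

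The tissue label was checked on colon epithelium genes, and 8 of 8 were above the detection limit, with log2 values of at least 6.56 on every array. Their summed level on a linear scale was 45110 to 53911 on the control arrays and 51607 to 52724 on the transgenic arrays. The arrays had nearly the same median over all probe sets, 3.31 to 3.36. All 6 animals are labelled male, yet Xist, the RNA of the silenced X chromosome, was 2.33 to 2.64 on the control arrays and 12.27 to 12.89 on the transgenic arrays, and the Y-linked Eif2s3y was 9.99 to 10.22 against 2.39 to 2.71. Sex by these genes and genotype cannot be told apart. Transgenic array 1 had the smallest gap between the 3′ and the 5′ probe sets of the control genes, 0.71 for Gapdh and 1.46 for Actb, where the others had 0.87 to 0.96 and 1.66 to 1.82. Transgenic array 2 carried Krtdap, a gene of stratified squamous epithelium, at 12.31, where the others were at 2.62 or less. Of 8 squamous genes 2 passed the filter, and their summed level was 12494 on transgenic array 2 and 73.7 to 557 on the others. Of 6 macrophage genes 6 had the lower mean in transgenic tumours, with a summed level of 763 to 1646 against 2089 to 2845 in controls. By unadjusted p under 0.05 there were 5 of them (83.3%, beside 5.82% of all genes), and by adjusted p 0. The 7 genes of absorptive colonocytes summed to 2304 to 9238 in controls and 1608 to 12076 in transgenic tumours, and 6 fibroblast genes to 18121 to 21582 against 8877 to 16980. Of 5 proliferation genes 5 had the lower transgenic mean, with a median difference of -0.37, 0 at an unadjusted p under 0.05 and a summed level of 7312 to 11174 against 10458 to 12400. The part of these differences in the subunit values was not tested, and in whole tumours fewer cells of a type and less RNA per cell cannot be told apart.

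The 73 subunit genes had nearly the same level in control and IL8 transgenic tumours. With limma, adjusted over all 19310 probe sets tested, 0 subunits had an adjusted p under 0.05, against 0.057% of all probe sets and 0.0486% of genes, and 0 had an unadjusted p under 0.05, against 5.82% of genes and 2.88% of 2191 other genes with a mean log2 value of at least 10, called bright genes below. The lowest unadjusted p was 0.129, for Ndufb10, with an adjusted p of 0.806. Every difference is transgenic minus control, in log2 units, and ± marks its standard error (SE) in the fit. They ran from -0.23 for Cox6b2 to 0.32 for Ndufb10. Cox6b2 lies at the detection limit and passed the filter mainly through the controls, where it is higher, so its difference is not read as a result. Among the 70 subunits with a mean of at least 10 the lowest was -0.20, for Sdhb. The median over all 73 was 0.044, beside -0.025 over all genes. By sign alone 49 subunits had the higher mean in transgenic tumours and 24 the lower, which is 67.1% higher beside 46.2% of all genes and 47.4% of the other bright genes.

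Because none passed, the intervals say more than the p-values. For 72 of 73 subunits the 95% interval of the difference lay within a 2-fold change in either direction, and for 65 within a 1.5-fold change. Over all genes these shares were 69.2% and 31%, and over the other bright genes they were 86.2% and 54.2%. These sets are not matched in level with the subunits. The median log2 level was 12.00 for the subunits, 10.87 for the other bright genes and 8.22 for all genes. The exception at 2-fold was Cox7a1. Without it the intervals reached from a ratio of 0.594, the lower bound of Sdhb, to 1.74, the upper bound of Cox7a2l. The subunits with an interval beyond 1.5-fold were Ndufa5, Ndufb5, Ndufb10, Sdhb, Cox6b2, Cox7a1, Cox7a2l and Cox7c. This precision is that of 3 arrays a group. For this comparison a simulation of 19310 probe sets recovered 0 of 50 simulated differences of 0.5 and 8 of 50 differences of 1 on the log2 scale. Every subunit difference was smaller than any size the simulation recovered. The simulated probe sets took the spread of all those tested, so this recovery is not that of the steadier subunits.

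**Figure D1:**
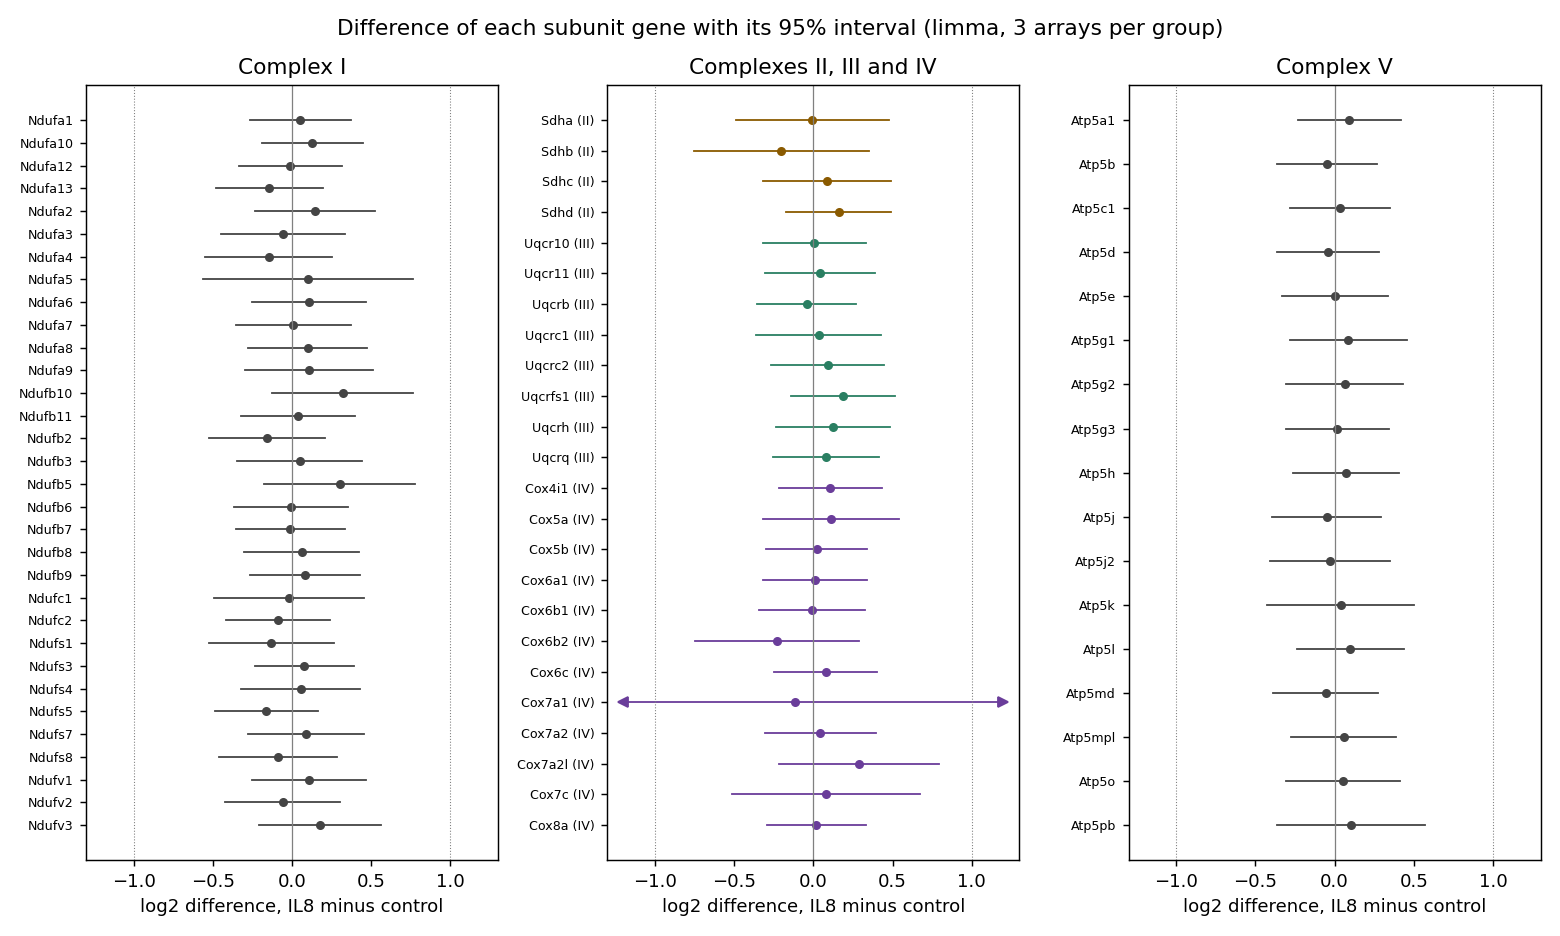
Points give the log2 difference, transgenic minus control, of each of the 73 subunit genes, and lines its 95% interval from limma with 3 arrays a group. Dotted lines mark a 2-fold change, and arrowheads on Cox7a1 mark an interval that runs past the axis, from -2.54 to 2.30. All intervals cross 0.

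The spread between arrays was small as well. The median SD within a group was 0.117 for the subunits, 0.180 for the other bright genes, and 0.276 for all genes. The median levels of these sets fall in the same order, and the part of level in the spread was not tested. The values of a subunit over all 6 arrays lay within 0.5 of each other for 61 of 73 genes (83.56%), beside 49.29% of the other bright genes, and within 1 for 72 (98.63%, beside 83.75%). Cox8a, a small subunit of complex IV, had the narrowest range, 0.0845. The widest was that of Cox7a1, 3.91, a range that 2.119% of genes tested reached or passed. Median SD was 0.0865 within the controls and 0.116 within the transgenic group. The fit widened the errors of these steady genes, because limma shares the spread over all probe sets: the median SE was 0.149 in the fit and 0.0956 from each gene's own spread.

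**Figure D2:**
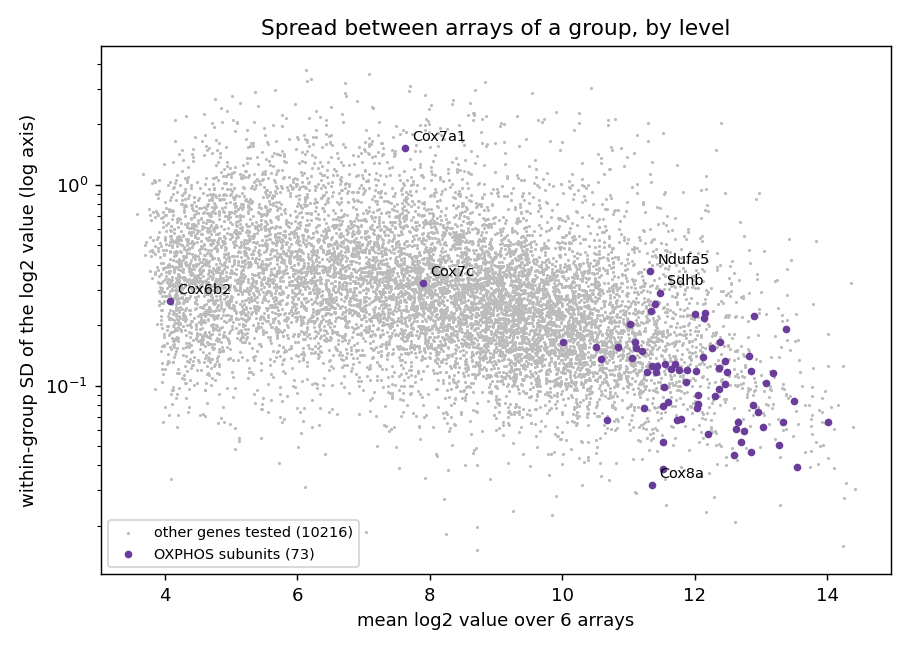
Each point is a gene tested, with the mean log2 value over 6 arrays on the x axis and the SD within groups on a log y axis. The 73 subunits (purple) lie low in the cloud at high values, with a median SD of 0.117, and Cox7a1 stands above the rest with 1.53.

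Groups did not overlap for 8 subunits, a share near the 11.5% of all genes and the 10.5% of the other bright genes. They were higher on every transgenic array for Ndufa10, Ndufb10, Ndufs3, Sdhd, Uqcrfs1, Cox4i1 and Cox6c (7 of 73, with 4.77% of all genes on that side) and lower for Ndufs5 (1 of 73, with 6.75% on that side). At the detection limit the filter admitted Cox6b2 and left out Ndufb1. Cox6b2, an isoform of complex IV known from testis, passed with 4 of its 6 arrays at 4 or more, the 3 controls among them. Its values were 4.18, 4.01 and 4.40 in controls and 3.89, 3.70 and 4.32 in transgenic tumours. Ndufb1 stayed outside with at most 3.66. The other 6 outside, Cox4i2, Cox6a2, Cox7b2, Cox8b, Cox8c and Ndufb4, were under 4 on all arrays. Ndufb4, Ndufa11, Ndufs5 and Ndufs6 also have probe sets annotated to several genes, which were not used, and Cox7b was not analysed here.

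The direction of the set as a whole followed single arrays. As deviations from each gene's control mean, the subunit medians were -0.014, -0.046 and 0.061 on the control arrays and -0.053, 0.13 and 0.055 on the transgenic arrays. Transgenic array 2 held the highest value of 38 of the 73 genes, and transgenic array 1 the lowest value of 34. Over all 10289 genes these arrays held the highest value of 2627 and the lowest of 2765, and over the 2191 other bright genes 579 and 526. Without transgenic array 2 the count of subunits with a higher transgenic mean was 33 of 73 and the median difference -0.003. Without transgenic array 1 these were 59 and 0.101. Array 2 is the one with the high Krtdap value and array 1 the one with the low 3′ to 5′ differences given above. Array 1 also held the lowest value of 5 of 5 proliferation genes, 5 of 7 genes of absorptive colonocytes and 4 of 6 fibroblast genes. The same held for 4 of 6 macrophage genes and 4 of 5 smooth muscle genes kept, but for 0 of 8 colon epithelium genes.

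**Figure D3:**
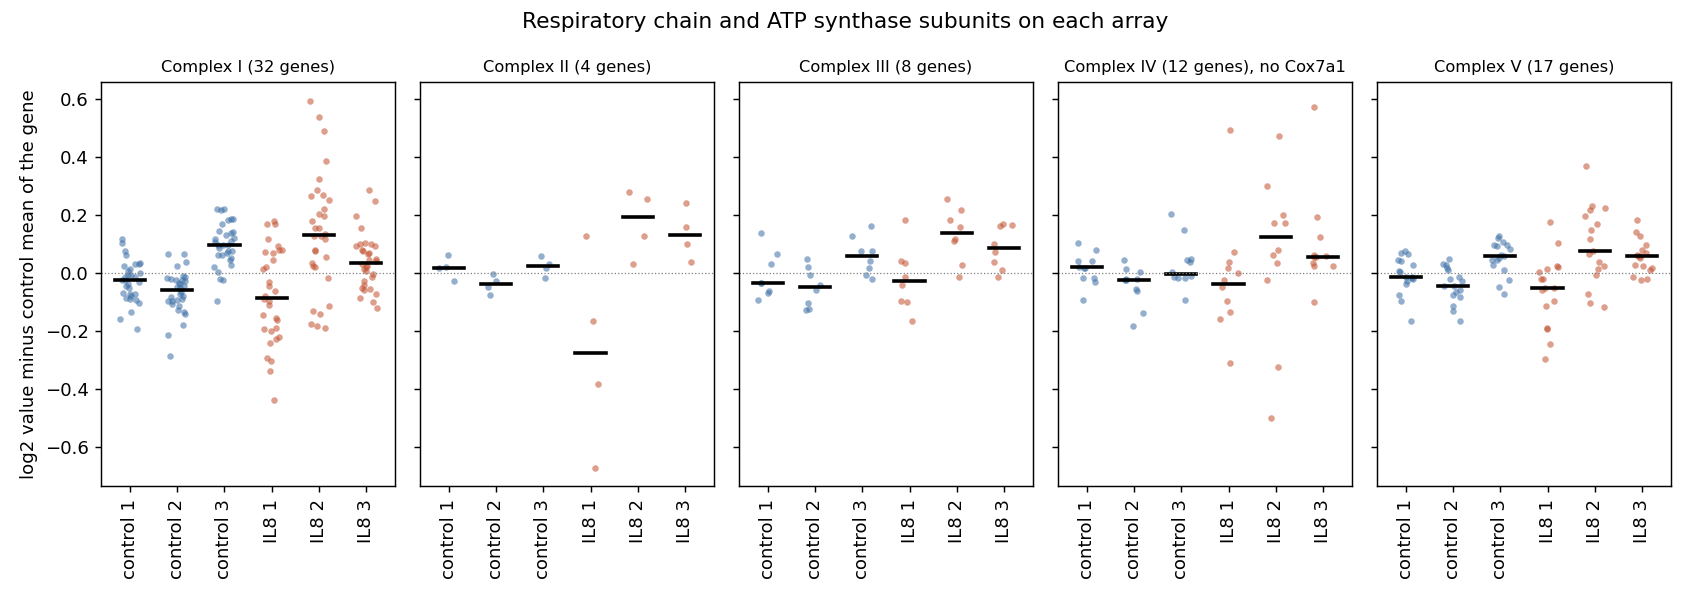
Points are subunit genes, plotted as the log2 value minus the control mean of the gene on each of the 6 arrays (controls blue, IL8 transgenic orange), and black bars are medians. Cox7a1 is left out of the points but counted in the complex IV median. In every complex transgenic array 2 has the highest median. The complex II median of -0.28 on transgenic array 1 is over 4 genes and rests on an Sdha probe set that the other kept Sdha probe set does not follow.

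With Ndufa4 counted by its symbol, complex I, the NADH dehydrogenase, had 19 of 32 genes with a higher transgenic mean and a median difference of 0.050. Its catalytic arm is built of an N module, which binds NADH and carries iron-sulphur clusters, and a Q module, which hands electrons to ubiquinone. The 9 N module genes, among them the core subunits Ndufv1, Ndufv2 and Ndufs1, differed by -0.13 to 0.18. In the Q module, Ndufs3, a core subunit, was 11.45, 11.46 and 11.55 in controls against 11.56, 11.56 and 11.58 in transgenic tumours. The groups do not overlap although the difference was only 0.08 ± 0.13. The other 4 Q module genes differed by -0.089 to 0.11.

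In the membrane arm, which pumps protons, the largest differences of the complex stood in its distal part. Ndufb10, an accessory subunit, was 10.92, 10.73 and 10.94 in controls against 10.94, 11.46 and 11.15 in transgenic tumours. Transgenic arrays 2 and 3 stood above the controls, and transgenic array 1 lay within rounding of the top control. The difference was 0.32 ± 0.18 (adjusted p = 0.806, limma), which became 0.182 when transgenic array 2 was left out and 0.440 when array 1 was. Ndufb5, another accessory subunit of that part, was 12.11, 11.72 and 12.19 in controls against 12.18, 12.55 and 12.21 in transgenic tumours. Its difference was 0.30 ± 0.20, and the groups overlap, with control array 2 the lowest and transgenic array 2 the highest. Without control array 2 it was 0.156, and without transgenic array 2 it was 0.181. Of the 9 distal genes, 8 had their highest value on transgenic array 2. The other 6 distal genes differed by -0.16 to 0.084.

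The proximal part of the membrane arm held the subunit with the lowest difference of the complex. Ndufs5, an accessory subunit on its intermembrane side, was 10.67, 10.73 and 10.85 in controls against 10.56, 10.57 and 10.63 in transgenic tumours, all 3 below the lowest control. The difference was -0.16 ± 0.13 (adjusted p = 0.818, limma). Ndufa10, an accessory subunit that has a nucleoside kinase fold, was 11.48, 11.44 and 11.43 in controls against 11.63, 11.61 and 11.50 in transgenic tumours. It was higher on all 3 transgenic arrays, by 0.13 ± 0.13. Ndufc2, the brightest probe set of the complex, was 12.91, 12.98 and 13.11 in controls against 12.94, 12.88 and 12.91 in transgenic tumours. Its groups overlap and it differed by -0.088.

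Both X-linked members are accessory subunits of complex I, and their groups overlap. Ndufa1 was 12.69, 12.64 and 12.70 in controls against 12.69, 12.80 and 12.69 in transgenic tumours. Ndufb11 was 12.38, 12.42 and 12.61 in controls against 12.49, 12.62 and 12.41 in transgenic tumours. Their differences were 0.05 ± 0.13 and 0.04 ± 0.15. Ndufa4, first assigned to complex I and now known as a subunit bound to complex IV, was 12.25, 12.42 and 12.67 in controls against 12.23, 12.26 and 12.42 in transgenic tumours. Its difference was -0.15 ± 0.17, smaller than the control SD of 0.21.

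Complex II, succinate dehydrogenase, is the enzyme shared with the citric acid cycle. Its 2 head subunits were low on a single array in their brightest probe sets. Sdha, the flavoprotein that oxidises succinate, was 11.36, 11.34 and 11.32 in controls against 10.96, 11.47 and 11.58 in transgenic tumours. Sdhb, the iron-sulphur subunit, was 11.55, 11.55 and 11.63 in controls against 10.90, 11.61 and 11.61 in transgenic tumours. In both, transgenic array 1 lay apart below the other 5, and the group differences were -0.0057 ± 0.20 and -0.20 ± 0.23. Without that array they were 0.183 and 0.035. The other kept probe set of Sdha was not low there, with 11.16, 11.15 and 11.19 in controls against 11.18, 11.33 and 11.19 in transgenic tumours, so the low Sdha value rests on 1 of its 2 kept probe sets. Sdhb has 1 kept probe set.

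The 2 membrane anchors, which bind ubiquinone and a haem, showed less of this. Sdhc was 9.99, 9.92 and 10.002 in controls against 9.80, 10.25 and 10.13 in transgenic tumours, again lowest on transgenic array 1. Sdhd was 11.22, 11.08 and 11.17 in controls against 11.28, 11.41 and 11.26 in transgenic tumours. Sdhd did not overlap between groups and differed by 0.16 ± 0.14 (adjusted p = 0.824, limma).

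In complex III, ubiquinol to cytochrome c reductase, 7 of 8 genes had the higher mean in transgenic tumours, with a median of 0.063. Uqcrfs1, the Rieske iron-sulphur protein that takes electrons from ubiquinol, was 11.71, 11.54 and 11.68 in controls against 11.82, 11.86 and 11.81 in transgenic tumours. All 3 transgenic values were above the highest control, with a difference of 0.19 ± 0.13 (adjusted p = 0.809, limma). The core proteins Uqcrc1 and Uqcrc2 differed by 0.033 and 0.09 ± 0.15, and Uqcrc2 was 13.27, 13.001 and 13.12 in controls against 13.12, 13.24 and 13.30 in transgenic tumours. Uqcrh, the acidic hinge protein at the cytochrome c site, was 12.75, 12.66 and 12.95 in controls against 12.82, 12.97 and 12.95 in transgenic tumours, a difference of 0.13 ± 0.15 with overlapping groups.

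Among the small subunits of complex III, Uqcrb, the brightest, was 13.59, 13.55 and 13.53 in controls against 13.46, 13.54 and 13.54 in transgenic tumours, a difference of -0.04 ± 0.13, while its other probe set gave 0.18. Uqcr10, a small membrane subunit, depended most on the probe set of all members with several. Its brightest probe set was 11.69, 11.80 and 11.86 in controls against 11.74, 11.81 and 11.82 in transgenic tumours, a difference of 0.0073. The others were 9.90, 9.57 and 9.93 against 8.22, 9.91 and 10.21, and 10.21, 10.15 and 10.28 against 8.69, 10.31 and 10.44. Both were low on transgenic array 1 alone, with differences of -0.35 and -0.40. Uqcr11 and Uqcrq differed by 0.043 to 0.083.

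Complex IV, cytochrome c oxidase, counted without Ndufa4, had 9 of 12 genes with a higher transgenic mean and a median of 0.033. Several of its nuclear subunits come as isoforms that differ between tissues, and in these tumours the probe sets of the ubiquitous forms passed the filter. Cox4i1 was 12.96, 12.95 and 13.02 in controls against 13.05, 13.17 and 13.03 in transgenic tumours, above all controls on all 3 transgenic arrays by 0.11 ± 0.13, and the lung isoform Cox4i2 was at most 2.92. Cox6a1 was 14.08, 14.02 and 13.91 in controls against 13.98, 14.03 and 14.03 in transgenic tumours, a difference of 0.01 ± 0.13, and its heart and muscle isoform Cox6a2 was at most 3.40. Cox8a, with the narrowest range, was 11.36, 11.35 and 11.33 in controls against 11.37, 11.32 and 11.41 in transgenic tumours, and the muscle isoform Cox8b was at most 3.33. Different probe sets differ in sensitivity, so these values say which probe sets passed the detection limit and not how much of each isoform there was.

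Cox6c, a small membrane subunit of complex IV, was 12.72, 12.68 and 12.70 in controls against 12.74, 12.87 and 12.72 in transgenic tumours, again without overlap and with a difference of 0.08 ± 0.13. Cox6b1, which faces the cytochrome c side, was 13.54, 13.47 and 13.48 in controls against 13.36, 13.58 and 13.53 in transgenic tumours, a difference of -0.0072. Its testis isoform Cox6b2, with the values given above, differed by -0.23 ± 0.21, which is not read as a result at the detection limit. Cox5a, Cox5b and Cox7c differed by 0.022 to 0.11.

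The Cox7a family held the exception of the whole set. Cox7a1 is the isoform of heart and skeletal muscle and is also made in smooth muscle and brown fat, and Cox7a2 is the form found in most tissues. Cox7a1 was 8.104, 7.33 and 7.62 in controls against 5.14, 9.04 and 8.53 in transgenic tumours. The transgenic arrays therefore held both its lowest and its highest values, with an SD of 2.12, and the controls lay between them with an SD of 0.39. The difference was -0.12 ± 1.00, with a 95% interval of -2.54 to 2.30 (adjusted p = 0.982, limma). Without transgenic array 1 it was 1.099, with an unadjusted p (limma) of 0.0119 and an adjusted p, the lowest among subunits, of 0.654. With each array left out in turn it ran from -0.855 to 1.099. Array 1 was singled out by its own low Cox7a1 value, so this unadjusted p is not read as a result. Cox7a2 on the same arrays was 13.07, 12.99 and 13.10 in controls against 12.96, 13.23 and 13.11 in transgenic tumours, a difference of 0.04 ± 0.14.

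Smooth muscle genes also had their highest values on transgenic array 2. Of 7 markers listed, 5 passed the filter. Actg2, the enteric smooth muscle actin, was 8.03, 6.86 and 7.18 in controls and 6.06, 10.70 and 9.89 in transgenic tumours. Tagln, an actin-binding protein of smooth muscle, was 9.30, 8.75 and 8.92 against 8.24, 11.13 and 10.19. The arrays stand in the same order for Actg2, for Tagln and for Cox7a1, from transgenic 2 and transgenic 3 down over controls 1, 3 and 2 to transgenic 1. This order is not particular to smooth muscle. Guca2a, a gene of absorptive colonocytes, had it too, while the other genes of that list did not. Among the members Cox5a, Cox5b and Atp5k also had it, and so did Cycs and Suclg1, other genes of mitochondria. Myh11, Acta2 and Cnn1 were also highest on transgenic array 2, but the order of their other arrays differed. The summed linear level of the 5 genes was 3202 to 3605 on the control arrays and 2037 to 9967 on the transgenic arrays. Des and Lmod1, left out by the filter, had their highest values on transgenic array 2, 8.41 and 4.22. Of 8 striated muscle genes only Mylpf passed the filter, at 4.82 to 5.16 with a difference of -0.22, and Ckm, Acta1 and Mb were under 4 on all arrays. The part of muscle content in the Cox7a1 values was not tested.

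**Figure D4:**
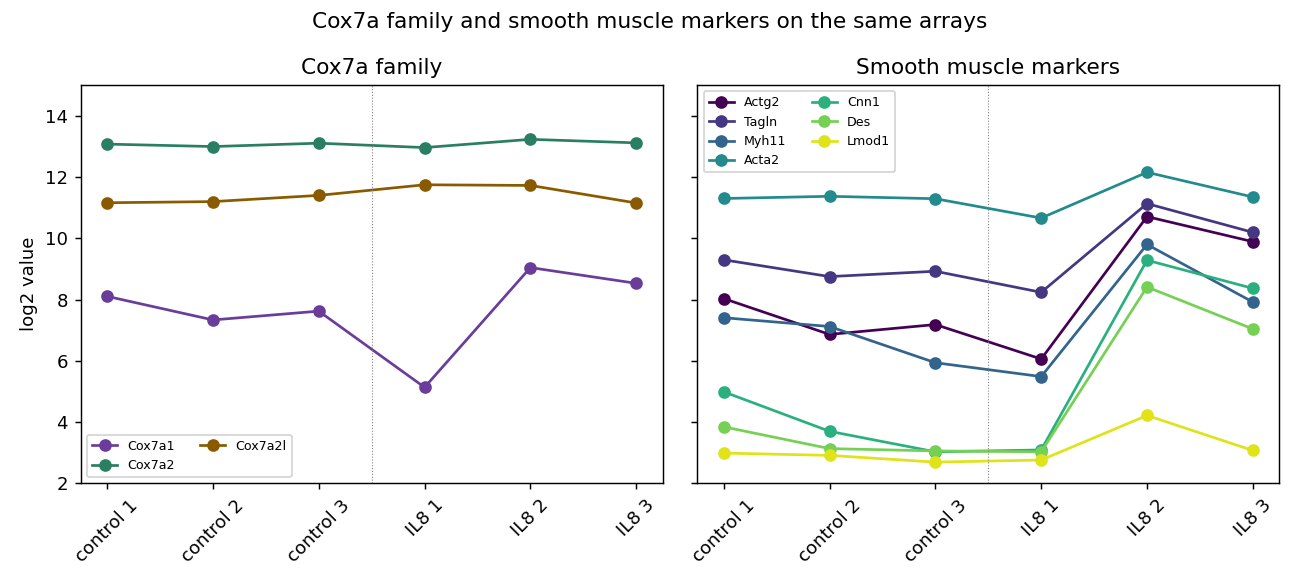
Log2 values on each array of the Cox7a family (left) and of 7 smooth muscle markers (right), with controls before the dotted line and IL8 transgenic arrays after it. Cox7a1 drops to 5.14 on transgenic array 1 and reaches 9.04 on transgenic array 2, and Actg2 goes from 6.06 to 10.70 on the same arrays, while Cox7a2 stays between 12.96 and 13.23.

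The promoters of Cox7a1 and Cox7a2 are shown so that the isoform with the widest range can be set beside its relative. They are from RefSeq on GRCm38.p6, as 250 bases up to the base before the start of transcription, 5′ to 3′ on the strand of the gene, with CpG in capitals. Cox7a1 lies at chr7:30183921-30184170 on the plus strand and Cox7a2 at chr9:79759854-79760103 on the minus strand.
Cox7a1: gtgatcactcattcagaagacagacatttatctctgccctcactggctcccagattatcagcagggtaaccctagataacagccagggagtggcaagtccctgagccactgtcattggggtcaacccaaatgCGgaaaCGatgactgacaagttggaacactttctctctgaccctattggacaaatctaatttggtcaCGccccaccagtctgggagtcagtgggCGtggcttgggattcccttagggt
Cox7a2: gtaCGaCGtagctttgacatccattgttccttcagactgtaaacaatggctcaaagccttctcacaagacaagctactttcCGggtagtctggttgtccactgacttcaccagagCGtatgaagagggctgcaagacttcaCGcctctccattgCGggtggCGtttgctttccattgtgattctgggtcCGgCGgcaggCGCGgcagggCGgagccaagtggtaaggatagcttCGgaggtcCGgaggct
Cox7a1 has 4 CpG and a GC content of 51.2% in this stretch, and Cox7a2 has 14 and 54.8%. The same 250 bases had a median of 14 CpG over the members, beside 16 for genes tested and 6 for all RefSeq promoters in the table. Low CpG content also occurred in members with a steady brightest probe set. Ndufc2 has 4 CpG and Uqcr10 has 5, and the log2 ranges of those probe sets over the 6 arrays were 0.23 and 0.17. The other kept probe sets of Uqcr10 were not steady and ran from 8.22 to 10.21 and from 8.69 to 10.44. A link between CpG content and spread was not tested.

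Cox7a2l, a relative of Cox7a2 that helps to join complexes III and IV into supercomplexes, was 11.16, 11.19 and 11.40 in controls against 11.74, 11.72 and 11.15 in transgenic tumours. Transgenic arrays 1 and 2 were above the controls and array 3 was just below the lowest of them. Its difference was 0.29 ± 0.21 (adjusted p = 0.809, limma). All 3 of its probe sets gave a difference of 0.28 to 0.35, and the lowest unadjusted p among the 134 kept probe sets of the members, 0.101, was one of them. Without transgenic array 3 the difference was 0.483, with an unadjusted p (limma) of 0.0351 and an adjusted p of 0.392. Without transgenic array 1 or 2 it was 0.186 or 0.197. Array 3 was singled out by its own low Cox7a2l value, so that unadjusted p is not read as a result.

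Complex V, the ATP synthase, had 17 of 17 intervals within a 1.5-fold change and 0 genes whose groups were apart. In the F1 head, where ATP is made, Atp5a1, the alpha subunit, was 12.65, 12.53 and 12.56 in controls against 12.60, 12.70 and 12.72 in transgenic tumours, a difference of 0.09 ± 0.13. The other 4 head subunits, Atp5b, Atp5c1, Atp5d and Atp5e, differed by -0.046 to 0.035. The c ring, the rotor that protons turn, is encoded by 3 genes for the same mature protein. Atp5g3, the brightest probe set of the complex, was 13.37, 13.35 and 13.25 in controls against 13.27, 13.39 and 13.38 in transgenic tumours, a difference of 0.02 ± 0.13. Atp5g1 was 11.69, 11.53 and 11.77 in controls against 11.61, 11.88 and 11.76 in transgenic tumours, a difference of 0.09 ± 0.15, and Atp5g2 differed by 0.063.

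The peripheral stalk, which holds the head still, differed by -0.048 to 0.10 over 4 genes. Atp5l, a membrane subunit that helps synthases pair, was 11.92, 12.03 and 12.04 in controls against 12.02, 12.22 and 12.06 in transgenic tumours, a difference of 0.10 ± 0.14, and the other 4 membrane subunits differed by -0.055 to 0.058. Atpif1, which is no member but the inhibitor that blocks ATP hydrolysis by the complex, was 11.74, 11.52 and 11.87 in controls and 11.17, 12.01 and 11.65 in transgenic tumours. Its difference was -0.099, and transgenic array 1 again held its lowest value.

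Promoters of subunit genes are known to carry sites for NRF1, a factor that drives nuclear genes of mitochondria. Of the 73 members 62 had a promoter in the RefSeq table, 67 promoters in all, each from 250 bases before to 50 after the start. The core of the NRF1 motif, GCATGCGC, was found on either strand in 9 of them (13.4%), beside 5.21% of promoters of genes tested and 2.71% of all 32851. In 4 (5.97%, beside 2.06% and 0.971%) it was read on both strands at the same place, which makes the complete motif that is the same on both strands. These 4 are shown, with the overlapping cores in capitals. They come from GRCm38.p6, 5′ to 3′ on the strand of the gene: Atp5g2 at chr15:102671055-102671114, Atp5k at chr5:108434415-108434474 and Cox6a1 at chr5:115349086-115349145, all on the minus strand, and Uqcrc1 at chr9:108936668-108936697 on the plus strand.
Atp5g2: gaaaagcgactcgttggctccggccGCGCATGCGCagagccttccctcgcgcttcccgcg
Atp5k: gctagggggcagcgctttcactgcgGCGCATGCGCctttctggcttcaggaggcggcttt
Cox6a1: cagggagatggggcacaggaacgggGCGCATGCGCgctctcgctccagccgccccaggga
Uqcrc1: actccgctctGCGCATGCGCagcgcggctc
Counted from the start of transcription, the capitals begin at base -42 in Atp5g2, -50 in Atp5k, -162 in Cox6a1 and 31 in Uqcrc1. On either strand the ETS motif CCGGAAG, bound by GABP, was in 17 promoters, 25.4% beside 18% of those of genes tested. The YY1 motif AAGATGGCG was in 6, 8.96% beside 3.12%, and the ERR motif TCAAGGTCA in only 2, 2.99% beside 0.28%. These are matches of letters and were not tested for use in this tissue.

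The rest of the machinery around the complexes was read from lists of genes. Assembly factors, which build the complexes and do not stay in them, had 42 of 45 genes kept, 26 with a higher and 16 with a lower transgenic mean, a median of 0.070 and 0 past an adjusted p of 0.05. By unadjusted p under 0.05 there were 3 (7.14%, beside 5.82% of all genes). Cox11, a copper carrier for complex IV, was 7.70, 7.03 and 7.74 in controls and 8.204, 8.35 and 8.01 in transgenic tumours. The groups are apart, with a difference of 0.69 ± 0.24 (adjusted p = 0.806, limma). Sdhaf2, which helps to add the flavin to Sdha, and Timmdc1, an assembly factor of complex I, differed by -0.67 ± 0.26 and -0.51 ± 0.20, and Cox15, of haem A synthesis, by 0.27 ± 0.15. The groups of Timmdc1 and Cox15 were apart as well. In the list 5 of 42 genes were apart on the higher side and 2 on the lower, beside 4.77% and 6.75% of all genes.

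Of 16 electron carriers and exchangers 14 were kept, 6 higher and 8 lower with a median of -0.0090 and 0 at either threshold. Gpd2, which feeds electrons from glycerol phosphate into the chain, was -0.28 ± 0.14 apart, and Slc25a4, an ADP and ATP exchanger, -0.32 ± 0.24. Etfdh and Etfb, which bring in electrons from fatty acid oxidation, differed by 0.18 ± 0.15 and -0.17 ± 0.15. Pyruvate and citric acid cycle genes had 18 of 20 kept, 11 higher and 7 lower with a median of 0.041. By unadjusted p under 0.05 there were 2 (11.1%, beside 5.82% of all genes), and by adjusted p 0. Both are kinases that switch off pyruvate dehydrogenase, and they lay in opposite directions. Pdk4 differed by -1.95 ± 0.71 and Pdk1 by 0.79 ± 0.31, and their groups overlap. Suclg2 and Dld, enzymes of the cycle and of the pyruvate dehydrogenase complex, differed by 0.37 ± 0.22 and 0.35 ± 0.17.

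All 12 regulators of mitochondrial genes were kept, 6 higher and 6 lower, with a median of -0.011. By unadjusted p under 0.05 there were 2 (16.7%, beside 5.82% of all genes), and by adjusted p 0. The first, Gabpb1, a beta subunit of GABP, lies at the detection limit, with 4.35, 5.12 and 4.78 in controls and 3.73, 3.59 and 4.36 in transgenic tumours. It passed the filter through the controls, where it is higher, so its difference is not read as a result. The other was Pprc1, a coactivator related to PGC-1, at -0.43 ± 0.16. The coactivators Ppargc1a and Ppargc1b themselves differed by 0.41 ± 0.20 and 0.58 ± 0.49. The mitochondrial ribosome, which translates the mitochondrial subunits, had 76 of 76 genes kept, 40 higher and 36 lower, a median of 0.0084 and 0 at either threshold. Its smallest unadjusted p belonged to Mrps23 (0.63 ± 0.27), Mrpl9 (0.42 ± 0.22), Mrps9 (0.36 ± 0.19) and Mrpl49 (-0.42 ± 0.24). ND5, a complex I subunit made in mitochondria whose probe set was chosen after it was seen, was 13.35, 13.33 and 13.11 in controls and 13.27, 13.42 and 13.14 in transgenic tumours, a difference of 0.014 ± 0.16.

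**Figure D5:**
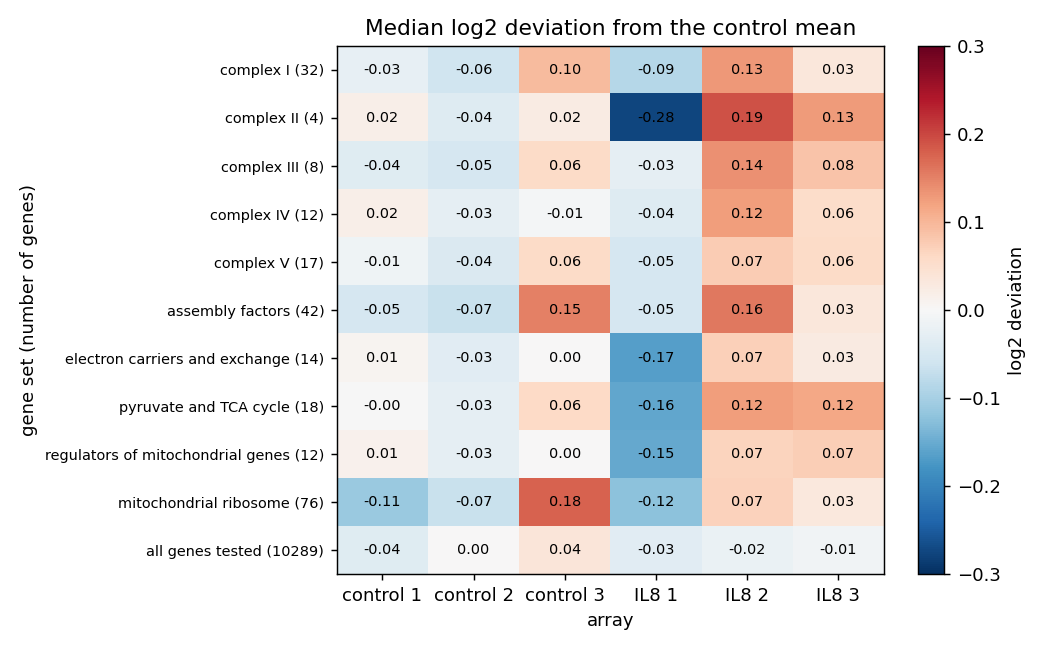
Each cell is the median, over the genes of a set named with its size on the y axis, of the log2 value minus the gene's control mean, on each of the 6 arrays on the x axis. On transgenic array 2 the 5 complexes lie between 0.075 and 0.19, and the value of -0.28 for complex II on transgenic array 1 depends on which Sdha probe set is used.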

How the data were processed

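The 6 arrays were deposited as log2 values, made by the authors with GCRMA, which corrects background and summarises the probes of a set, per the submitters' processing notes. Its version was not given in the sources used here. Values ranged as log2 values do. No further normalization was applied. Gene names came from the platform annotation, probe sets with 1 symbol only. Groups were taken from titles and genotype labels. A probe set was tested at log2 4 or more on at least 3 arrays, and limma 3.58.1 in R 4.3.3 (lmFit, eBayes) compared transgenic with control, with Benjamini-Hochberg adjustment over 19310 probe sets. Precision is limited by the number of arrays, 3 a group.

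Members and gene lists were chosen with earlier results of these data known. Values on every array are printed for the 3 members per complex with the smallest unadjusted p, the brightest per complex, isoform sets, X-linked members, Ndufa4 and Atpif1. Differences are printed for up to 4 genes with the smallest p of each list. Ndufs3, Ndufa10, Cox6c, Sdha, Uqcr10, ND5 and the array values of Cox11 were chosen after their values were seen, and smooth muscle markers stand beside Cox7a1. The fit was tested on simulated data. Alternatives covered the filter, scaling, prior variance, array weights, probe set choice, a replicate block, sex-linked genes and leaving out each array.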

Additional observations from a re-analysis of the deposited data

How the results depend on the processing

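Under all 18 alternatives 0 subunits had an adjusted p under 0.05, with the lowest adjusted p between 0.392 and 0.999. The median difference over the members lay between 0.027 and 0.077 across the alternatives that keep all arrays, and between -0.003 and 0.101 when arrays were left out. Leaving out each array gave medians of 0.034 to 0.124 for complex III and 0.005 to 0.106 for complex IV, the upper ends without transgenic array 1. Probe sets called over the whole table numbered 11, and 3 without named X- and Y-linked genes. Among the members printed with their values on every array, signs turned for those that follow. They include Sdhb and Cox6b2, the latter at the detection limit. With the second-brightest probe set the differences were -0.015 for Atp5a1, 0.015 for Cox6b1, 0.068 for Sdha, -0.399 for Uqcr10, 0.182 for Uqcrb and -0.004 for Uqcrc2. Of the members given only within a range, Ndufb6 (0.138), Atp5d (0.042) and Atp5k (-0.0050) turned with that probe set as well. With probe sets averaged the differences were 0.004 for Cox6b1, 0.031 for Sdha, -0.247 for Uqcr10 and 0.070 for Uqcrb. Array weights gave 0.023 for Cox6b1, 0.017 for Cox6b2, 0.543 for Cox7a1 and 0.133 for Sdha. Centring gave 0.005 for Cox6b1 and 0.006 for Sdha, and quantile normalization -0.005 for Atp5g3 and -0.004 for Uqcr10. Leaving out each array turned Atp5g3 (-0.017 to 0.058), Cox6a1 (-0.037 to 0.050), Cox6b1 (-0.050 to 0.056), Cox7a1 (-0.855 to 1.099), Cox7a2 (-0.020 to 0.115), Cox8a (-0.004 to 0.039), Ndufb11 (-0.019 to 0.109), Sdha (-0.128 to 0.183), Sdhb (-0.320 to 0.035), Sdhc (-0.005 to 0.218) and Uqcr10 (-0.040 to 0.045). The cause was not tested. With the replicate number as a block, 0 members passed and the lowest adjusted p (limma) was 0.943. Same-numbered arrays did not deviate together (correlations of -0.267, -0.277 and -0.051). With 3 arrays a group such correlations constrain one another, so this check cannot exclude a weak pairing of the samples.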
